A study of Mus musculus with 8 samples.

Results

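The regions described here are transcript models that carry no gene name, only a serial number after the prefix HAG_ or HND_, in RNA-seq of young and old mouse haematopoietic stem cells (HSCs). They were chosen by their prefix and by their level: every row of the deposited table whose symbol starts with HAG_ or HND_ and whose mean scaled value over the 8 libraries was at least 10. This left 1265 of the 38172 rows, 932 HAG models and 333 HND models, out of 1755 such rows, and 490 rows fell under the mean of 10. The mean over all libraries is itself a measured value, so the levels of the members are given as a description, whereas the age difference was not used to choose them.

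HSCs sit in the bone marrow, where they self-renew and produce every blood lineage. They were freshly sorted from C57BL/6 wild-type mice of 4 months (young) and 24 months (old) as SP-KSL-CD150+, which means side population cells that are positive for Kit, Sca-1 and the SLAM receptor CD150 and negative for lineage markers. Each age has 2 biological replicates, numbered 13 and 14, and each of these has 2 technical libraries, which were averaged. Both ages share the strain, the sort and the selection of polyA RNA, and age is the only difference between them that the labels give. Anything unlabelled that differs with age cannot be told apart from it. How many animals went into a replicate is not stated in the labels, so the p-values reflect only how far these samples spread.

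Mammalian genomes are transcribed well beyond their named genes. Some of this RNA is antisense, made from the strand opposite a gene, and some is divergent, starting beside a gene's promoter and running away from it. Other unnamed RNA continues a gene past its annotated end, or lies between genes as long noncoding RNA or as an exon that an annotation has missed. A strand-specific library can separate an antisense transcript from the gene it overlaps. A library that does not mark strand cannot, because a read from the shared bases fits both. The labels name a TruSeq RNA kit and do not say that it marked strand, and for the counting any use of strand is likewise not given in the sources used here.

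HSC markers were present as the sort implies. All 13 of the HSC marker rows examined were above 0 in all 4 replicates, with summed scaled values of 153864.5 and 147385 in young replicates 13 and 14, below the 169408.5 and 184602 in old replicates 13 and 14. Neutrophil markers gave sums of 10922 (young 13), 27175 (young 14), 9475 (old 13) and 18386.5 (old 14), with 11 of 12 rows above 0 in every replicate. Monocyte and macrophage markers summed to 1036, 7433.5, 1460.5 and 4543 in the same order, with 6 of 6 rows above 0. The replicates numbered 14 were therefore higher in both lists at both ages. Erythroid markers (7 of 7 rows above 0) summed to 4861.5, 4042, 2397.5 and 2927, and stromal and endothelial markers (10 of 10) to 10263.5, 11374, 7509.5 and 7170, so both sums were lower in both old replicates. B cell markers (6 of 6) summed to between 1123.5 and 1256 and T cell markers (5 of 6) to between 426 and 505.5. The total scaled value per library lay between 40.7 M and 44.2 M. In bulk RNA, a change in the number of cells of a type and a change in RNA per cell cannot be told apart.

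At both ages replicate 14 stood apart from replicate 13 at a small group of members. Of the 1261 members tested, 10 were more than 2 log2 units higher in young 14 and 4 were more than 2 log2 units lower, while the median difference was -0.04. In old cells 7 were more than 2 log2 units higher in old 14 and 3 lower, with a median of -0.044. The values of the members with young replicates far apart are given with the results that rest on them.

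The prefixes separated 2 kinds of position. Of the 932 HAG models, 926 overlapped a named row on the opposite strand only and 5 overlapped named rows on both strands. The remaining model, HAG_042703, overlapped none and lay 1431 bases from Acy1. The HND models were nearly the reverse: 300 of 333 overlapped no named row, 25 overlapped one on the same strand and 8 on the opposite strand. Each member was paired with 1 partner, the named row with the longest overlap on either strand or, where there was none, the nearest named row. Coordinates are those of the deposited table, on build mm9.

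HAG models lay mostly over the 3′ part of their partner. Of the 931 that overlap a named row, 580 (62.3%) reached the partner's 3′ end, 90 (9.67%) reached its 5′ end, 308 lay inside it, and in 793 (85.2%) the middle of the model lay nearer to the partner's 3′ than to its 5′ end. The median HAG model had 92.6% of its span overlapped by the partner, and 504 of the 931 had at least 90%. Their median span was 2450 bases, and the median length behind the FPKM value was 85.4% of the span. The 932 models had 908 different partners, so they were spread over many genes and only 20 partners had more than 1 model.

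HND models lay around genes on both sides. Among the 300 with no overlap the median distance to the nearest named row was 2292 bases (quartiles 568 and 6404). Downstream of the gene on the same strand lay 100 models, upstream on the opposite strand 84, upstream on the same strand 83, and downstream on the opposite strand 33. Models on either strand were thus found on both sides of genes, with the fewest downstream on the opposite strand.

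**Figure D1:**
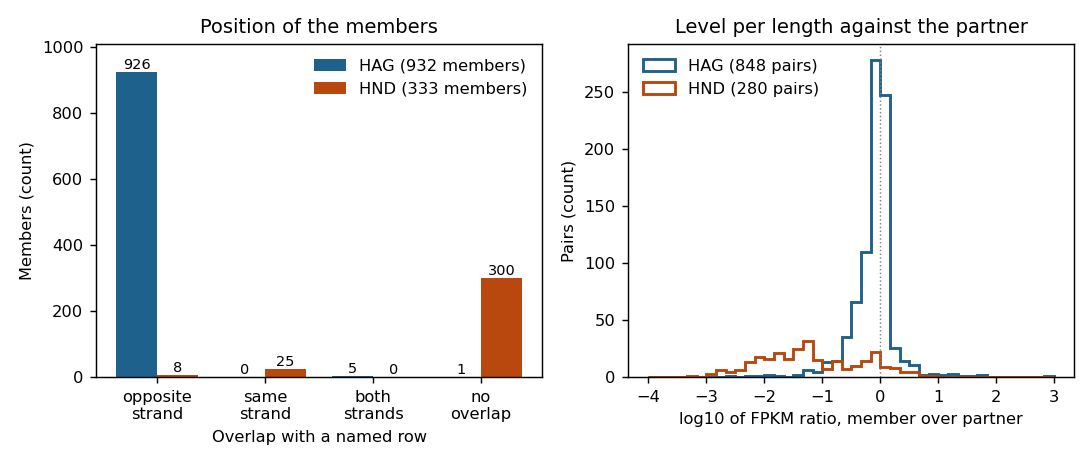
Left, number of HAG and HND members by the strand on which they overlap a named row. Right, distribution of the log10 ratio of mean FPKM, member over partner, where the partner's mean scaled value was at least 10; the dotted line marks equal levels. HAG models sit almost wholly opposite a named row and their ratios gather at the dotted line, whereas most HND models overlap nothing and their ratios spread below it.

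A divergent arrangement, in which a model starts upstream of a gene and runs the other way, was found with a gap of 250 bases or less for 28 of the 84 HND models upstream on the opposite strand. Their median scaled value was 35.9, against 1907 for the genes beside them. Of the 28, 0 passed the age test described below. Of all tested rows 2.55% passed it, so a count of 0 among 28 is not read as a trait of these models. For 19 of these genes the promoter window (250 bases before to 50 after the gene's start) was read from RefSeq on GRCm38.p6, a later build than the files' mm9. The windows of the 3 most abundant such models with a RefSeq entry are printed, 5′ to 3′ on the strand of the gene, because on mm9 the model and the gene start within 250 bases of each other there. Capitals mark matches on either strand to the GC box GGGCGG, which reads CCGCCC on the other strand. The other motifs searched were CCAAT and TATAAA, which are absent from these 3 windows. The windows are Cpsf2 at chr12:101975724-101976023 on the plus strand, 6530409C15Rik at chr6:28215249-28215548 on the plus strand, and Kmt2a, called Mll1 in the files, at chr9:44881240-44881539 on the minus strand.
Cpsf2: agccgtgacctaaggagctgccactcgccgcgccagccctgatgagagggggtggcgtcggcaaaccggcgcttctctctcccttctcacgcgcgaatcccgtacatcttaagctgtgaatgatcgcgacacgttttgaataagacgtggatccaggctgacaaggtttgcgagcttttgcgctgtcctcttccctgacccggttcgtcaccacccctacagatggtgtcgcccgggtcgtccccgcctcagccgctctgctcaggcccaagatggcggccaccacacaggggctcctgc
6530409C15Rik: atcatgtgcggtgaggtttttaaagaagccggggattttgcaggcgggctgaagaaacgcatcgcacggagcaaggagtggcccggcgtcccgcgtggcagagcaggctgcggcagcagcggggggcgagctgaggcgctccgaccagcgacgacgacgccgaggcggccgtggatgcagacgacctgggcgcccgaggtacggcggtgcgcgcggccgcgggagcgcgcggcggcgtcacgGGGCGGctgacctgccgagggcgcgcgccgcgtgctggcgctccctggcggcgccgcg
Kmt2a: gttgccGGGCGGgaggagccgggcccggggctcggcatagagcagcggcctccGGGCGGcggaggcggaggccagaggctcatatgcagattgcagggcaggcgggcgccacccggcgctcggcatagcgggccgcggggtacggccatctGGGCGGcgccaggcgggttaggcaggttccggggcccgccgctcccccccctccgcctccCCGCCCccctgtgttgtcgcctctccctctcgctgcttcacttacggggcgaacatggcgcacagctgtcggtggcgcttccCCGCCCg

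Across the 19 windows, 13 held GGGCGG, 5 held CCAAT and 2 held TATAAA, and the median number of CpG dinucleotides was 26. Of all 32851 RefSeq promoter windows of the same length, 35.7% held GGGCGG, 37.4% held CCAAT and 13.6% held TATAAA, with a median of 7 CpG. These windows were not matched to the 19 for expression, so the contrast is not read as a trait of divergent models. In the windows printed the CpG counts were 26 for Cpsf2, 50 for 6530409C15Rik and 36 for Kmt2a. The Kmt2a window held 5 GC boxes, that of 6530409C15Rik 1, and that of Cpsf2 none. A match is only a description of the letters. No HND model sequence is printed because positions on mm9 cannot be read from the later build.

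The models beside these 3 promoters differed in level from their genes. HND_000876 (chr12:103205859-103213935, minus strand), which starts 249 bases upstream of Cpsf2, a subunit of the complex that cleaves pre-mRNA before polyadenylation, had scaled values of 1253.5 and 1766 in young 13 and 14 and 1279.5 and 1977 in old 13 and 14. Cpsf2 itself had between 5993 and 7673.5, but per length the model was 3.80 times its FPKM. HND_003103 (chr6:28161776-28165489, minus strand), 87 bases from 6530409C15Rik, had 738, 763, 665 and 617.5 in the same order (young 13, young 14, old 13, old 14, as in every list of 4 values here) and was 5.23 times its partner per length. HND_003698 (chr9:44689439-44692642, plus strand), 82 bases from the histone methyltransferase gene Mll1, had 155, 113, 152 and 73.5, against 14298.5 to 28037.5 for Mll1, and was 0.0806 of it per length. Their log2 fold changes of old over young were 0.10 (SE 0.25), -0.23 (SE 0.16) and -0.32 (SE 0.38), none past the test by limma (adjusted p 0.92, 0.627 and 0.795). The next most abundant divergent models were HND_002011, 233 bases from the cytokine gene Clcf1, with 147.5, 54.5, 183 and 89, and HND_000902, 194 bases from the small GTPase gene Rala, with 119, 84.5, 163 and 96. In both models the ages overlapped.

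The families also differed in level. The median scaled value over the libraries was 672.9 for HAG models and 32.1 for HND models. HAG models held between 3.13% and 3.38% of a replicate's total scaled value and HND models between 0.0995% and 0.128%. Per length, the median HAG model had 0.914 times the FPKM of its partner (quartiles 0.598 and 1.07, over 848 partners with a mean of at least 10). This median was 0.885 and 0.91 in young replicates 13 and 14, and 0.912 and 0.923 in old replicates 13 and 14. An unnamed model on the opposite strand was thus typically given about the same coverage as the gene it overlaps. Reads of the shared bases cannot be told apart without strand, and how they were divided between rows was not tested. HND models had a median of 0.0525 times their partner (quartiles 0.0153 and 0.400, 280 pairs).

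The most abundant members lay mostly beside named rows that were themselves abundant. HAG_016893 (chr17:84581806-84591815, plus strand) overlaps 4019 bases of Zfp36l2, which encodes an mRNA-destabilizing zinc finger protein. It had scaled values of 42264.5, 46230, 42693.5 and 45215, and Zfp36l2 had 41843, 46299, 42752.5 and 45436. The pair of rows thus held nearly the same value in every replicate. HAG_013156 (chr15:42256154-42258858, plus strand), opposite Angpt1, the ligand of the Tek receptor, had 18353.5, 20734, 21355.5 and 23868.5. HAG_034751 (chr6:143151422-143157541, minus strand), opposite the ethanolamine kinase gene Etnk1, had 15089, 17852, 17006.5 and 22675.5. HAG_023748 (chr2:119425154-119433881, minus strand) had 14982, 15867.5, 16582.5 and 17180 and differs in that its partner, 1700020I14Rik, had only 2531.5 to 3014.5. Its span is 8728 bases, of which 1327 lie opposite the partner, and per length the ratio was 1.03.

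The other 4 of the 8 most abundant members followed the same pattern, with 1 exception in position. HAG_004356, opposite the row of the phosphatase gene Ctdsp2 and its microRNA Mir26a-2, lay between 13679.5 and 15943. HAG_003742, opposite Cd24a, which encodes a cell-surface glycoprotein, lay between 9395.5 and 17902.5. HAG_015707, opposite Cggbp1, a gene for a protein that binds CGG repeats, lay between 9732 and 15520.5. In HAG_004356 both old values were above both young ones and in the others the ages overlapped. The log2 fold changes were 0.14 (SE 0.15), 0.37 (SE 0.26) and 0.24 (SE 0.22), and none passed the test (adjusted p by limma 0.777, 0.631 and 0.735).

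The exception is HND_002728 (chr5:3526154-3531263, plus strand), which starts 3929 bases past the end of Cdk6, the cell cycle kinase gene, on the same strand. Its scaled values were 13818 and 16695.5 in young cells against 11551.5 and 10606.5 in old cells. Both young values were above both old values, but the difference of -0.46 on the log2 scale (SE 0.17) did not pass the test (adjusted p by limma 0.275). Cdk6 had 5632, 6474, 4335.5 and 4001.5, a log2 fold change of -0.54 (adjusted p by limma 0.145). Per length the model was 1.37 times Cdk6, and it was far above the next HND model, HND_002520 (2866.5, 3193, 3428 and 3174.5), which lies 765 bases downstream of the ferric reductase-like gene Frrs1 on the opposite strand.

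The other abundant HND models reached lower values and gave no call. HND_003089 (chr6:3151198-3151551) had 1986.5, 1881.5, 1526.5 and 1624, with no expressed named row near it: Gm8579, the nearest, was 86968 bases away and had 0.5 in 1 replicate and 0 in the others. HND_000876 is described above. HND_003343, 4973 bases upstream of the ribonuclease inhibitor gene Rnh1, had 1462.5, 1037.5, 1414.5 and 1692.5. HND_000279, 1061 bases upstream of Zbtb2 on the same strand, had 1531.5 and 2048 in the replicates numbered 13 and 806 and 1091 in those numbered 14. It differed more by replicate number than by age. HND_001042, HND_000515 and HND_001652, also among the 10 most abundant HND models, had log2 fold changes of -0.29, -0.53 and -0.71 (SE 0.17, 0.17 and 0.25) and adjusted p by limma of 0.539, 0.197 and 0.255.

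The mean of 10 that chose the members is a low one. Just inside it lay HND_000595 with 14, 10.5, 9.5 and 6 in young 13, young 14, old 13 and old 14, HAG_039801 with 17, 15, 3.5 and 5, HND_000617 with 16, 11.5, 11.5 and 1.5, and HND_001659 with 9.5, 5.5, 17 and 9. Just outside it, each with a mean of 9.875, lay HAG_005005, HAG_021890, HAG_008080 and HAG_007423, with values in single replicates between 2 and 20.

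Old and young HSCs were then compared. The question is which of these unnamed models differ in level with age, and whether they do so apart from the genes beside them. Of the 1265 members 1261 reached a scaled value of 10 in 2 or more of the 4 replicates and were tested; the other 4 were HND models (HND_001659, HND_002448, HND_002719 and HND_003110). At an adjusted p under 0.05 by limma over all 18318 tested rows, 32 members differed, 28 higher and 4 lower in old HSCs. That is 2.54% of the members, and of all tested rows 2.55% passed, so the share among the unnamed models was that of the table as a whole. In the higher direction it was 2.22%, where all rows gave 2.01%, and in the lower direction 0.317%, where all rows gave 0.54%. Of the 932 HAG models 23 rose and 4 fell (2.9% called), and of the 329 tested HND models 5 rose and 0 fell (1.52% called). An unadjusted p under 0.05 by limma was found for 33 of these 329 HND models and for 2573 of all 18318 tested rows. The median log2 fold change of the tested members was 0.089, and that of all tested rows 0.044. Among the rises, HAG_028241, HAG_017664, HAG_033600, HND_000982 and HND_001398 had both young values under 10. They entered the members and the test through their old values only, so their calls are not free of the selection.

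Other unnamed rows and named noncoding RNAs were counted by the same test. Another family of unnamed models, with the prefix HNG_, had 31 of 1663 tested rows past the threshold, 22 higher and 9 lower. Among 24 tested rows of a list of named long noncoding RNAs, 0 passed by limma and 5 had an unadjusted p under 0.05, as did 2573 of all 18318 tested rows. Those with the smallest p were Snhg11 (18.5, 13.5, 86 and 45.5 in young 13, young 14, old 13 and old 14, adjusted p 0.0718), Miat (60, 32, 226 and 109.5, adjusted p 0.105), the imprinted H19 (64, 65.5, 33 and 31.5, adjusted p 0.173), and Gas5 (9575, 10248, 8206 and 6294, adjusted p 0.29).

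**Figure D2:**
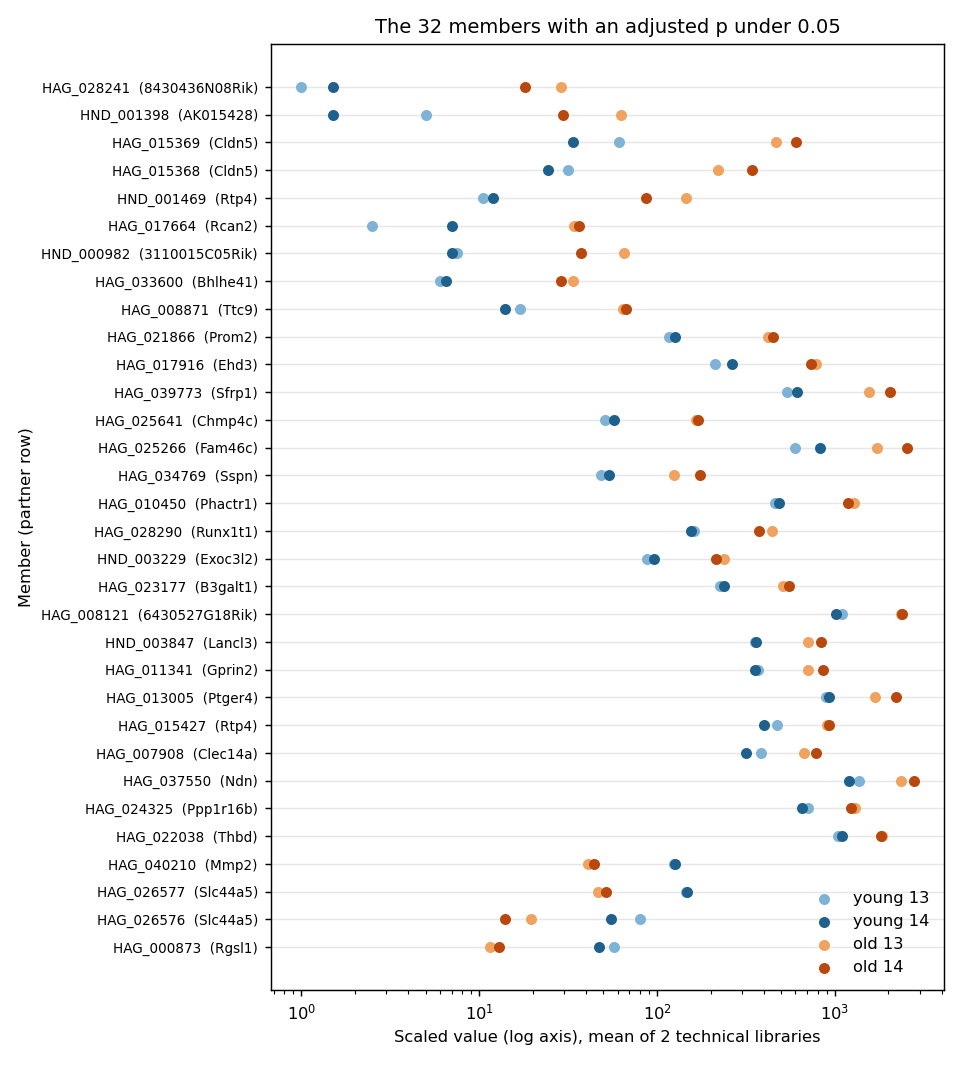
Scaled value of each of the 32 members past the threshold in the 4 biological replicates (log axis; each point is the mean of 2 technical libraries), with the partner row in brackets. The 28 members at the top have both old replicates above both young ones and the 4 at the bottom have them below, from HAG_028241 at 1 in young 13 to HAG_037550 at 2779 in old 14.

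The members with the strongest evidence for a rise lay opposite Cldn5, which encodes the tight junction protein claudin-5. HAG_015369 (chr16:18777879-18778394, minus strand) had 61 and 33.5 in young cells against 466 and 604 in old cells, and HAG_015368 (chr16:18776952-18777447, minus strand) had 31.5 and 24.5 in young against 219 and 343 in old. They rose 11.6-fold (log2 3.54, SE 0.33, adjusted p by limma 0.0043) and 9.71-fold (log2 3.28, SE 0.32, adjusted p by limma 0.0047). Cldn5 had 168.5 and 120 in young cells against 1375 and 1786 in old cells, a log2 fold change of 3.46. Since both models share the same partner row, and 477 and 496 of their bases lie opposite it, they are not independent of each other.

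The other rises with the smallest p lay opposite genes of varied roles. HAG_021866 (chr2:127349886-127355198, plus strand), opposite the membrane glycoprotein gene Prom2, had 116.5 and 127 in young cells against 418.5 and 450.5 in old cells and rose 3.56-fold. HAG_039773 (chr8:24556640-24560444, minus strand), opposite Sfrp1, whose secreted product modulates Wnt signals, had 538.5 and 615 in young against 1563.5 and 2047 in old and rose 3.11-fold. HAG_017916 (chr17:74180208-74181561, minus strand), opposite the endocytic recycling gene Ehd3, had 212 and 265.5 in young against 783 and 735.5 in old and rose 3.19-fold. In all 3 pairs the partner rose too, with log2 fold changes of 1.83, 1.62 and 1.68 beside 1.83, 1.64 and 1.68 for the models.

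HAG_010450 (chr13:43231204-43233963, minus strand), opposite Phactr1, a regulator of actin and of a protein phosphatase, had 461 and 484 in young cells against 1287 and 1189 in old cells and rose 2.62-fold. HAG_008121 (chr12:88221366-88226638, plus strand), opposite 6430527G18Rik, had 1103.5 and 1013.5 in young against 2364.5 and 2377 in old and rose 2.24-fold. HAG_023177 (chr2:67955614-67960296, minus strand), opposite the galactosyltransferase gene B3galt1, had 225 and 239.5 in young against 513.5 and 550 in old and rose 2.29-fold. The partners Phactr1, 6430527G18Rik and B3galt1 passed the same test, and the groups of each model were far apart relative to their spread.

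HAG_028290 (chr4:13817196-13834151, minus strand), opposite Runx1t1, a transcriptional corepressor gene known from its fusion to RUNX1 in acute myeloid leukaemia, had 160.5 and 154.5 in young cells against 441.5 and 374 in old cells and rose 2.58-fold (log2 1.36, SE 0.20, adjusted p by limma 0.0218). HAG_025641 (chr3:10389432-10401811, minus strand), opposite the ESCRT-III subunit gene Chmp4c, had 51 and 57 in young against 166.5 and 169 in old and rose 3.09-fold. Chmp4c, with 6.5, 8, 41.5 and 24, had a log2 fold change of 2.06 that did not pass (adjusted p by limma 0.0714). HAG_028241 (chr4:7383238-7495105, minus strand), whose span of 111868 bases overlaps 7271 bases of 8430436N08Rik, went from 1 and 1.5 in young to 29 and 18 in old HSCs. Its partner had 5.5, 5.5, 17 and 19.5 and did not pass (adjusted p by limma 0.123). These are values near the lower limit of measurement, so the fold of HAG_028241 depends on the pseudocount of 0.5.

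A further 16 members passed the threshold but lie outside the rule that chose the named members, and they are named here after their values were seen. All 16 were higher in old HSCs. Among the 12 HAG models of this set, HAG_025266 (chr3:100271981-100276457, plus strand), opposite the noncanonical poly(A) polymerase gene Fam46c, had 595 and 830 in young cells against 1722 and 2540.5 in old cells. HAG_037550 (chr7:69493126-69495212, minus strand), opposite the imprinted gene Ndn, which encodes necdin, had 1370 and 1207.5 in young against 2364.5 and 2779 in old. HAG_013005 (chr15:5183092-5185402, plus strand), opposite Ptger4, the gene of a prostaglandin E2 receptor, had 890.5 and 926 in young against 1690 and 2200 in old. Each of these changed by about the amount of its partner: the log2 fold changes were 1.57, 0.99 and 1.09 for the models and 1.46, 0.99 and 1.08 for Fam46c, Ndn and Ptger4.

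Others lay opposite genes of surface proteins known from endothelium, and 1 opposite a clock gene. HAG_022038 (chr2:148228479-148236421, plus strand), opposite the thrombomodulin gene Thbd, had 1036.5 and 1095 in young cells against 1836 and 1820.5 in old cells, a 1.72-fold rise and the smallest of the 28 rises. HAG_007908 (chr12:59365418-59370644, plus strand), opposite the endothelial lectin gene Clec14a, had 383.5 and 318 in young against 667.5 and 779 in old. The models opposite Cldn5, Thbd and Clec14a, genes known from endothelium, rose, and the summed stromal and endothelial markers were lower. That sum mixes stromal with endothelial genes, and how it relates to these rises was not tested. HAG_033600 (chr6:145810821-145811517, plus strand), opposite Bhlhe41, a transcriptional repressor gene of the circadian clock, had 6 and 6.5 in young against 33.5 and 29 in old. Its log2 fold change of 2.23 (SE 0.40) was below the 3.10 of Bhlhe41, and the difference between them was -0.87 (SE 0.16, unadjusted p 0.00536 and adjusted p 0.177 by limma).

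The other HAG models of this set lay opposite Rtp4 (HAG_015427), Ttc9 (HAG_008871), Gprin2 (HAG_011341), the phosphatase subunit gene Ppp1r16b (HAG_024325), the calcineurin regulator gene Rcan2 (HAG_017664) and Sspn (HAG_034769), and their rises ranged from 1.88-fold for HAG_024325 to 7.53-fold for HAG_017664. HAG_017664 (chr17:44117012-44119645, minus strand) went from 2.5 and 7 in young to 34 and 36.5 in old HSCs. Its log2 fold change of 2.91 was 2.25 without young replicate 13, where it did not pass (adjusted p by limma 0.0705), and 3.57 without young replicate 14. Rcan2 had 48.5, 61, 68.5 and 99 and did not pass (log2 fold change 0.59, adjusted p by limma 0.494). HAG_011341, with 371.5 and 356 in young cells against 707 and 855.5 in old cells, was far above its partner Gprin2, whose 49, 42.5, 108 and 118 did not pass (adjusted p by limma 0.0657).

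The 4 members that fell were all HAG models and were between 2.90-fold and 4.13-fold lower in old HSCs. With the lower-numbered or the higher-numbered technical libraries only, none of them passed. HAG_040210 (chr8:95376298-95379164, minus strand), opposite the matrix metalloproteinase gene Mmp2, had 124 and 125.5 in young cells against 41 and 44.5 in old cells (log2 -1.54, SE 0.26, adjusted p by limma 0.0345). Mmp2 fell with it, from 410.5 and 423 to 134 and 145.5 (log2 -1.57). The sum of stromal and endothelial markers was also lower in old HSCs, and its part in this fall was not tested. The other 3 had a partner that was too low to test.

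HAG_026577 (chr3:153741550-153757111, minus strand) and HAG_026576 (chr3:153736070-153741461, minus strand) lie next to each other, wholly inside the span of Slc44a5, a gene of the choline transporter-like family. HAG_026577 had 145.5 and 147 in young cells against 46.5 and 52 in old cells (log2 -1.56, SE 0.26, adjusted p by limma 0.0299). HAG_026576 had 80 and 55 in young against 19.5 and 14 in old (log2 -1.97, SE 0.37, adjusted p by limma 0.0462). Slc44a5 itself had 0.5 in young 13 and 0 in the other replicates. These models therefore have signal where the named row they overlap has almost none. HAG_000873 (chr1:155632992-155678919, plus strand), inside the span of Rgsl1, had 57 and 47.5 in young against 11.5 and 13 in old (log2 -2.05, SE 0.35, adjusted p by limma 0.0334), whereas Rgsl1 had 4, 6.5, 6 and 8.5.

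The 5 HND models that rose overlapped no named row and lay between 151 and 162581 bases from the nearest one. HND_001469 (chr16:23595172-23602591, plus strand) ends 7414 bases upstream of Rtp4, an interferon-induced gene, on the same strand. It had 10.5 and 12 in young cells against 145.5 and 87 in old cells, a 9.64-fold rise (log2 3.27, SE 0.37, adjusted p by limma 0.00895). Rtp4 had 1070, 864, 1891.5 and 1900.5, a log2 fold change of 0.98. The model opposite Rtp4, HAG_015427 (chr16:23613258-23614254, minus strand), had 470.5, 400, 906 and 923.5, a log2 fold change of 1.08. The fold change of the upstream model was 2.29 log2 units (SE 0.36) above that of Rtp4, with an unadjusted p of 0.0035 and an adjusted p of 0.162 by limma, which does not pass.

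HND_003847 (chrX:8845362-8848236, plus strand), 151 bases past the end of Lancl3 on the same strand, had 357 and 358.5 in young cells against 704.5 and 838.5 in old cells, and Lancl3 had 621, 678, 1143.5 and 1368. HND_003229 (chr7:20063647-20066707, plus strand), 8247 bases upstream of the exocyst-like gene Exoc3l2 on the same strand, had 87.5 and 96 in young against 239.5 and 214.5 in old. They rose 2.15-fold and 2.47-fold, and the nearest genes, with log2 fold changes of 0.95 (Lancl3) and 1.19 (Exoc3l2), passed too. The other pair had no tested neighbour. HND_000982 (chr13:111835294-111839096, plus strand), 162581 bases from 3110015C05Rik, had 7.5 and 7 in young against 65 and 37.5 in old, and HND_001398 (chr15:63526496-63529175, minus strand), 38117 bases from AK015428, had 5 and 1.5 in young against 63 and 29.5 in old. The log2 fold change of HND_001398, 3.72, was 4.45 without young replicate 13 and 2.99 without young replicate 14, where it did not pass (adjusted p by limma 0.0541). Both neighbours stayed at 4 or below in every replicate.

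**Figure D3:**
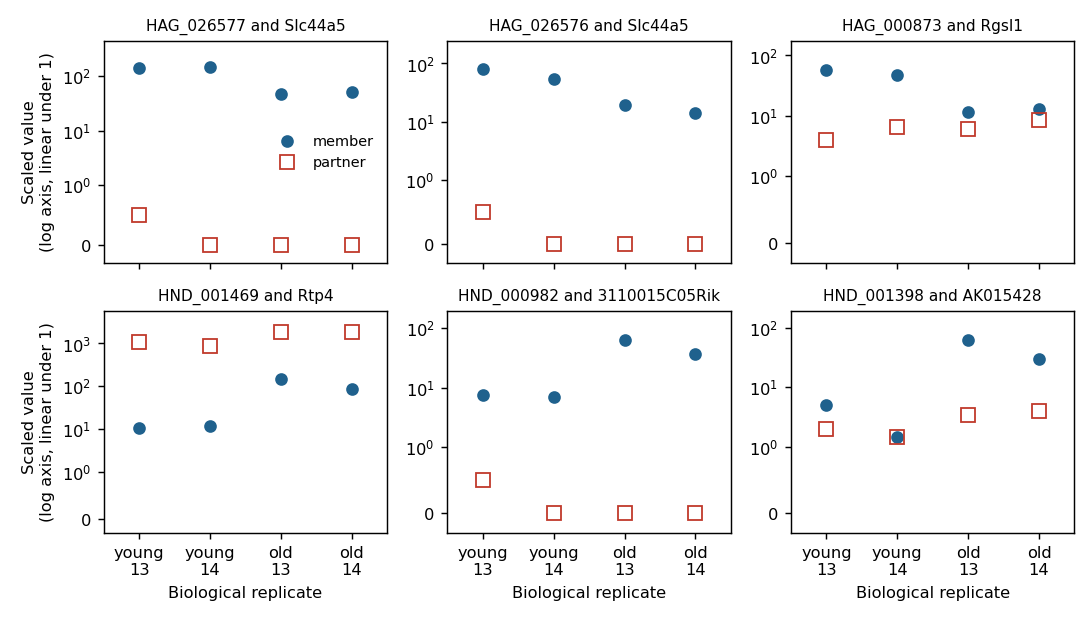
Scaled values in the 4 biological replicates (log axis, linear under 1) of 6 members past the threshold and of their partner rows, chosen because the partner was not tested or, for Rtp4, changed by a smaller factor. The 3 models of the top row fall with age over partners too low to test, and the 3 HND models of the bottom row rise.

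Most of the calls coincided with a call at the partner. Of the 27 HAG models past the threshold, 24 had a tested partner, and in 20 the partner passed in the same direction. The 4 whose partner did not pass were the models opposite 8430436N08Rik, Chmp4c, Gprin2 and Rcan2, and the 3 whose partner was not tested were the models over Slc44a5 and Rgsl1. Of the 5 HND models, 3 had a nearest named row that passed in the same direction and 2 had one that was not tested. In 7 of the 32 the model had at least 5 times the scaled value of its partner. Of all tested named rows 2.63% passed. Overlapping rows share bases, so a shared call of a HAG model and its partner is a description and no test.

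Seen from the named genes, 25 rows past the threshold had a tested HAG model opposite, 26 models in all. Of these 26, 20 passed and all 26 had the sign of the partner. Since these models share bases with the partner, this match too is a description and no test. The 6 that did not pass were lower in level, with a median mean of 40.6 against 518. Those named here lay opposite Gpr4, a proton-sensing receptor gene (HAG_036831, with 152 and 145 in young cells against 292 and 302 in old cells, adjusted p by limma 0.061), Muc1, Cecr2, Plekhg3 and Ltbp4. HAG_008820, opposite Plekhg3, had 243.5 and 229 in young against 151.5 and 104 in old. In those named here, too, both old replicates lay on the same side of both young ones, except in HAG_035202, opposite Ltbp4, with 44.5, 22.5, 63 and 41.5.

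Fold changes of HAG models followed those of their partners across the whole set. Over 852 pairs Pearson's r of the log2 fold changes was 0.865, and the median absolute difference was 0.0444 log2 units. Over the 737 pairs in which both rows had a mean of at least 50, r was 0.969, the median absolute difference 0.0352, and in 0 pairs did the rows differ by more than 1 log2 unit. Over the other 115 pairs r was 0.682 and the difference was over 1 log2 unit in 10. Pairs share libraries and depth, and overlapping rows share bases, so these values describe the table and are no test. The likeness was not particular to age: over the same 852 pairs the difference between replicates of 1 age gave r of 0.912 (young 14 minus young 13) and 0.892 (old 14 minus old 13).

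The likeness was also examined by overlap. The r was 0.824 for the 452 pairs with at least 90% of the span overlapped, 0.959 for the 210 with 50 to 90% and 0.878 for the 190 with less than 50%. The median absolute differences were 0.0378, 0.0389 and 0.0805 log2 units, so only the class with the least overlap stood apart. The r did not follow the overlap. Level was not held equal between these classes, and its part was not tested.

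For HND models and their nearest gene these values were further apart. Over 277 pairs r was 0.517 and the median absolute difference 0.278 log2 units, and over the 103 pairs with both means at least 50 these were 0.518 and 0.197. Differences between replicates of 1 age gave r of 0.223 in young and 0.136 in old HSCs. By position, r of the log2 fold changes was 0.658 downstream on the opposite strand (23 pairs), 0.613 downstream on the same strand (93 pairs), 0.398 upstream on the opposite strand (76 pairs) and 0.374 upstream on the same strand (65 pairs). HND models are lower than HAG models, and level was not held equal between the positions or the families, so its part in these differences was not tested.

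**Figure D4:**
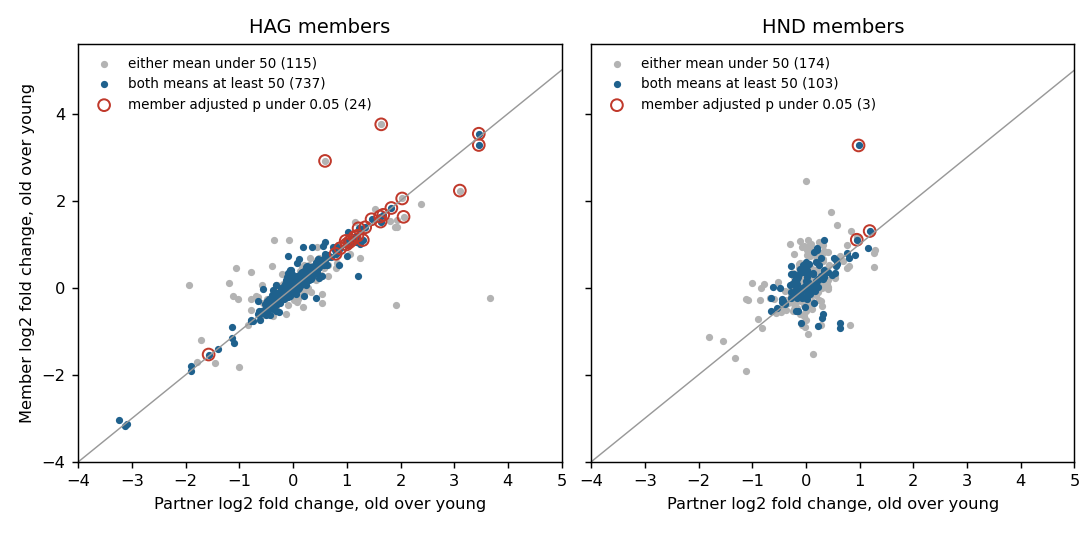
Log2 fold change of old over young for each member (vertical axis) against that of its partner row (horizontal axis), for 852 HAG and 277 HND pairs; the line marks equal changes and red circles mark members past the threshold. HAG pairs with both means of at least 50 (blue) lie close to the line, and the HND pairs scatter more widely around it.

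Whether a model changed differently from its partner was tested directly, with the log2 ratio of the rows as the measured value. Of 13579 rows of the table with a tested partner, 0 (0%) passed at an adjusted p under 0.05 by limma, with a smallest adjusted p of 0.0744, and 1764 (13.0%) had an unadjusted p under 0.05. Of the 1129 members among them 0 passed, and 33 had an unadjusted p under 0.05. These were 17 of 852 HAG models (2%) and 16 of 277 HND models (5.78%), below the share over all rows. Most of all rows are named rows paired with another named row. HAG models share bases with their partner, and reads of these cannot be told apart without strand. Whether shared bases limited the change of such a ratio was not tested, and the lower share is not read as a result about the models. With 2 replicates per age, the absence of a call does not show that a model and its partner changed alike.

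The members with the smallest unadjusted p in this test are given by their values. HAG_031731 (chr5:108840118-108846320, minus strand), inside the span of the phosphodiesterase gene Pde6b, had 28, 20, 23.5 and 13.5, and Pde6b had 5.5 and 4 in young cells against 24 and 15 in old cells. The model's ages overlapped whereas both old values of Pde6b were above both young ones, a difference of -2.31 log2 units (SE 0.12, unadjusted p 5.1e-05, adjusted p 0.0744 by limma). HND_002179 and HND_002296, which overlap each other on opposite strands of chr2:172788737-172793290 and lie 12053 and 10645 bases upstream of the meiotic recombination gene Spo11, had fold changes of the opposite sign to that of Spo11. HND_002179 had 159 and 116 in young against 96.5 and 52.5 in old, and Spo11 had 537 and 363.5 in young against 955.5 and 494 in old (difference -1.56, SE 0.13, adjusted p 0.0824 by limma). HAG_018428, opposite Atp8b1, stayed between 9.5 and 12 while Atp8b1 had 16, 28.5, 6 and 4.5 (unadjusted p of the difference 0.00423, adjusted p 0.17 by limma).

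Of the 6 largest fold changes without a call, 2 lay opposite immediate early genes, whose transcription rises soon after a stimulus without new protein synthesis. HAG_008909 (chr12:86816574-86818584, minus strand), opposite the AP-1 subunit gene Fos, had 496.5 in young 13 but 22269.5 in young 14, and 38.5 in old 13 but 3436.5 in old 14. HAG_035060 (chr7:19887844-19890375, plus strand), opposite Fosb, had 23.5, 3433.5, 7.5 and 151.5. Both were far higher in the replicates numbered 14 than in those numbered 13, at both ages, and within each number the old value was below the young one, while the ages overlap. The log2 fold changes of -3.18 (SE 2.28) and -3.04 (SE 2.25) did not pass (adjusted p by limma 0.636 and 0.648), and without young replicate 14 that of HAG_035060 was 0.54.

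The same replicates stood apart at the other members more than 2 log2 units higher in young 14 than in young 13. HAG_014522 and HAG_014521, both opposite the nuclear receptor gene Nr4a1, had 92 and 97 in young 13, 3292.5 and 2775 in young 14, 86.5 and 101.5 in old 13, and 249 and 217 in old 14. HAG_040063, opposite the transcription factor gene Klf2, had 16, 706, 21 and 94, and HAG_012788, opposite Egr3, had 21, 878, 28.5 and 131.5. HAG_000769, opposite the antiproliferative gene Btg2, had 333.5, 4824, 301 and 755. Of the remaining members HAG_010068, opposite Gapt, had 43, 246.5, 39.5 and 96, HAG_042700, opposite the DNA sensor gene Tlr9, had 12.5, 96.5, 24 and 40.5, and HAG_019180 had 65, 269, 379.5 and 408.5. In all but the last, young 14 was the highest of the 4 replicates. Neutrophil and monocyte markers were also higher in the replicates numbered 14, and their part in these values was not tested.

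The partners of the members higher in young 14 were also highest there, except 1700030N03Rik, the partner of HAG_019180, which had 0 in every replicate. Fos had 632, 34457.5, 53.5 and 5256.5, Fosb 60, 9471, 16.5 and 378, and Nr4a1 407, 11306.5, 383 and 850. The models opposite Fos and Fosb had the replicates in the same order as the gene, and the difference in log2 fold change between model and partner was -0.05 (SE 0.16) for Fos and 0.20 (SE 0.15) for Fosb.

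The 4 members more than 2 log2 units lower in young 14 were HND_000779 (39, 9, 35 and 22), HND_001401 (41, 8, 88.5 and 43), HND_003378 (24.5, 5.5, 26 and 12) and HND_002458 (18.5, 2, 47 and 29). All 4 are low HND models, and the partners examined did not share this pattern: Rcor1, beside HND_000779, lay between 3404.5 and 4095, and Pgrmc2, beside HND_002458, between 2121.5 and 2861.

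**Figure D5:**
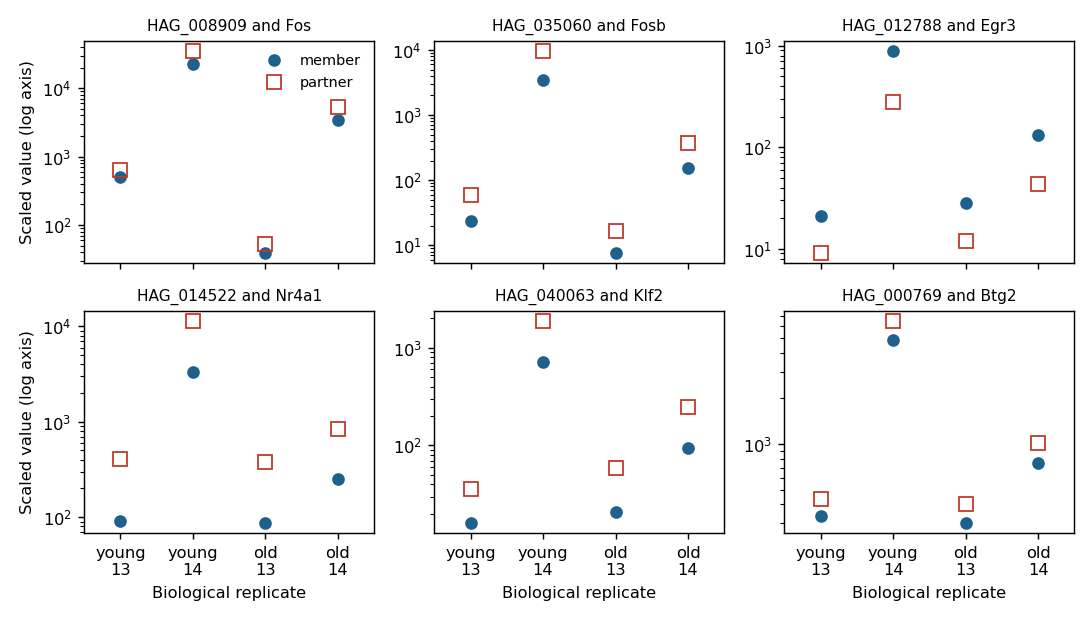
Scaled values in the 4 biological replicates (log axis) of 6 members and of the immediate early genes they lie opposite. Model and gene have the 4 replicates in the same order, and young 14 is the highest replicate in every panel, as at Fos with 22269.5 for the model and 34457.5 for the gene.

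The remaining large changes without a call were at members of low or uneven level. HAG_042781 (chr9:110325020-110325886, minus strand), opposite Ngp, a neutrophil granule protein gene, had 406 and 820 in young cells against 15 and 283.5 in old cells (log2 -3.12, SE 1.18, adjusted p by limma 0.288), and Ngp had 1112.5, 2170, 42 and 779.5. Ngp is itself one of the neutrophil markers whose sums are given above. HND_000293 (chr10:26415111-26463759, plus strand) had 43.5 and 33.5 in young against 16 and 3 in old, and HND_000008 (chr1:10305197-10314173, plus strand) had 23 and 13.5 in young against 3 and 5 in old. Both had higher values in both young replicates, with adjusted p of 0.184 and 0.113 by limma. At HND_002458, 1164 bases upstream of Pgrmc2, the change was 2.44 on the log2 scale (SE 0.89, adjusted p by limma 0.273), with 0.01 for Pgrmc2.

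Leaving out 1 replicate removed many of the calls. Without old replicate 13 or without old replicate 14, 0 of the members passed by limma. Without young replicate 13, 18 members passed, of which 10 were among the 32, and without young replicate 14, 11 passed, of which 10 were among the 32. All 32 kept the sign of their change in each of these and the other settings in which they were tested. In all 32 both old replicates lay on the same side of both young ones. Leaving out 1 replicate therefore could not have reversed a sign.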

How the data were processed

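Polyadenylated RNA of sorted HSCs was sequenced in 8 libraries. Per the file headers, each deposited file gives a count-like column and an FPKM value per row; a deposited table repeats both for all libraries. The authors' count-like values are treated as a score, since they were scaled per library and rounded: 4 of the 8 libraries skip some whole numbers between 1 and 30. In the authors' deposited table the columns of log2 fold change and of p-value (as FDR) hold no value for any of the 5104 HNG, HAG or HND rows and were not used. Per the submitters' processing notes, coordinates are on mm9, and DESeq is listed with neither role nor version. Aligner, counter and strand setting are details not given in the sources used here.

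Each technical pair was averaged, and log2(mean + 0.5) was fitted over all 18318 rows with a value of at least 10 in at least 2 replicates, in limma 3.58.1 (R 4.3.3). Age was the only term, the empirical Bayes prior followed the level, and the two-sided p-values were adjusted by Benjamini and Hochberg's method. Fold changes are on that log2 scale and understate the change of low rows. The ratio of a row to its partner was fitted the same way. Samples were grouped by the ages and replicate numbers of the labels. Alternatives covered pseudocount, scaling, filters, prior, technical libraries, the replicate block and each replicate left out. The fit was tested on simulated data with known changes before use. Those data took their spread from the fit's own prior, with independent replicates, so they cannot test these assumptions. Of 2-fold and 8-fold changes, 24.8% and 86.8% were recovered in the age test. In the test against the partner these were 0.2% and 61%.

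Members and lists were chosen with earlier results of these data known. The named members are the 12 with the smallest p in each direction (4 were lower), the 8 with the highest mean, the 6 largest changes without a call, and the 4 on each side of the mean of 10. The remaining 16 members past the threshold, the divergent and abundant HND models, the members with young replicates far apart and those with the smallest p against their partner were added after their values were seen. A few members are not reported here.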

Additional observations from a re-analysis of the deposited data

How the results depend on the processing

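The count of 32 members stayed the same with a pseudocount of 1 or 5 and with a mean of at least 10 as the filter, and was 29 with median-ratio scaling and 26 with quantile normalization. It was 17 or 20 with the lower-numbered or higher-numbered technical libraries only, and all of these were higher in old HSCs. With a prior without a trend it was 21, and with no filter on low values 0. The filter does not alter the fold changes, so the signs there were the same by construction. Restricted to members that overlap no named row the count was 5, from 298 tested, where 2.55% of all tested rows passed in the main fit. Leaving out 1 replicate gave between 0 and 18 members, and an age with 1 replicate is then assumed to vary like the other; the cause of these differences was not tested beyond the fewer samples. The replicate block gave 185 members, 140 higher and 45 lower, and these include HAG_008909, HAG_035060, HAG_042781 and HND_002728, with adjusted p by limma of 8.39e-11, 1.11e-05, 1.11e-05 and 0.0312. Same-numbered replicates deviated together (Pearson's r of the differences of 13 and 14 between ages 0.544 over all rows and 0.584 over the members), but with only 2 numbers and no label that ties them they were not taken as pairs. Changing the scaling moved the median log2 fold change from 0.089 to 0.043 (median-ratio) and 0.015 (quantile). The test against the partner gave 0 in every setting, including the limit on partner span that was added after seeing the data. Members without a call changed sign when 1 replicate was left out, with lowest and highest values over the 4 such fits as follows. These were -0.07 and 0.06 for HAG_016893 (0.00 with the lower-numbered libraries), -0.03 and 0.51 for HAG_015707, -6.41 and 0.05 for HAG_008909, -6.62 and 0.54 for HAG_035060, -3.34 and 0.51 for HAG_000769, and -1.99 and 0.51 for HAG_010068. They were -3.83 and 1.52 for HAG_012788, -4.22 and 0.61 for HAG_014521, -4.48 and 0.67 for HAG_014522, -3.97 and 1.45 for HAG_040063, and -1.61 and 1.29 for HAG_042700 (0.1 with the higher-numbered libraries). Among HND models they were -0.48 and 1.57 for HND_000779, -0.46 and 1.6 for HND_003378, -0.22 and 0.41 for HND_000876, -0.84 and 0.2 for HND_003698, -0.21 and 1.22 for HND_002011, -0.06 and 0.7 for HND_000902, and -0.03 and 0.89 for HND_000279. HAG_018428 had -0.1 and 0.22, and -0.13 with quantile normalization.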
